A study of Mus musculus with 24 samples.

Results

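Fatty acid oxidation genes were followed in the RNA of mouse brown fat from warm-housed and cold-exposed mice with and without a Cre recombinase meant to delete TBLR1 and TBL1. The set was a list of 33 named enzymes, transporters and peroxisome proteins, and its members were the rows of the deposited count table whose Ensembl identifier belongs to one of these symbols. Of the 33, 31 were among the 12615 genes of the table, and all 31 passed the filter on low counts. Cpt1b, the muscle and brown fat form of carnitine palmitoyltransferase 1, and Acadvl, the very-long-chain acyl-CoA dehydrogenase, are not analysed here.

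The 24 libraries formed 4 groups of 6 mice. All mice carried homozygous floxed alleles of Tbl1xr1 (which encodes TBLR1) and Tbl1x (TBL1), and all received tamoxifen, with housing at the test temperature starting 3 weeks after the last injection. BATdKO mice also carried Ucp1-CreERT2, a tamoxifen-inducible recombinase driven by the Ucp1 promoter and so aimed at brown adipocytes, whereas Cre- control mice lacked it, and other cells of the tissue were left with intact alleles by design. Mice were raised at 22 °C and were then either moved directly to 30 °C for 4 days or cooled by steps of 1 day at 18, 16 and 12 °C before 6 days at 8 °C. The labels describe females and give the age at injection as 5 years, while the study's text gives it in weeks, describes males for these data and states fewer days in the cold.

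Brown fat burns fatty acids to make heat. Long chains are first coupled to coenzyme A by acyl-CoA synthetases, then carried into mitochondria as carnitine esters by carnitine palmitoyltransferases, and there shortened in repeated rounds of dehydrogenation, hydration, a second oxidation and thiolysis, whose first electrons pass through the electron transfer flavoprotein (ETF) to the respiratory chain. Peroxisomes shorten very long and branched chains by parallel enzymes, and both pathways are known to be raised by nuclear receptors of the PPAR family and their coactivator PGC-1α in tissues that use fat, brown fat and liver among them.

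Several measurements of the libraries bear on every value below. Total counts were 699703 to 11527643 per library, and the lowest total belonged to Cre- mouse m4 at 30 °C (mice are numbered m1 to m6 within a group). The 10 hepatocyte markers, such as albumin (Alb, 5686 to 14393 CPM), took 2.93% to 4.60% of all counts, against 0.0533% to 0.358% for the 10 brown adipocyte markers and 0.0700% to 0.398% for 5 general adipocyte markers, and exceeded the brown adipocyte sum in all 24 libraries. Hepatocytes are known to use most enzymes of this pathway too, so a level in these libraries is not a level in brown adipocytes alone. Brown adipocyte markers were nonetheless present at widely differing levels. Ucp1, the uncoupling protein of heat production, had 28.9 to 2076 CPM and Cidea 144 to 882 CPM. Others were low, with Prdm16 at 0.811 to 7.68 CPM, Otop1 at 0.405 to 43.3 CPM and Dio2 at 0 in 1 library. The 12 skeletal muscle markers took 9.23e-05% to 0.944% of counts, highest in Cre- mice m3 (0.944%) and m1 (0.413%) at 30 °C. The deleted genes went against the labels: at 8 °C Tbl1xr1 had 18.2 to 24.6 CPM (median 21.0) in libraries labelled Cre- and 33.7 to 44.3 CPM (median 39.5) in libraries labelled BATdKO (log2 fold change 0.93, standard error 0.17, edgeR adjusted p = 0.00348), and Tbl1x was also higher under the BATdKO label (log2 fold change 0.39, standard error 0.10, edgeR adjusted p = 0.0633), a call lost on leaving out any of 9 libraries in turn. Which exons were floxed was not checked here, and a 3′ tag outside a deleted exon does not measure the deletion, so groups are named by their labels throughout and each genotype direction below is a direction between labels. At 30 °C the mouse m6 of each genotype stood on the other group's side, with Tbl1xr1 at 38.6 CPM in the library labelled Cre- m6 and 17.0 CPM in the library labelled BATdKO m6. Counts of members called are therefore also given without both.

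**Figure D1:**
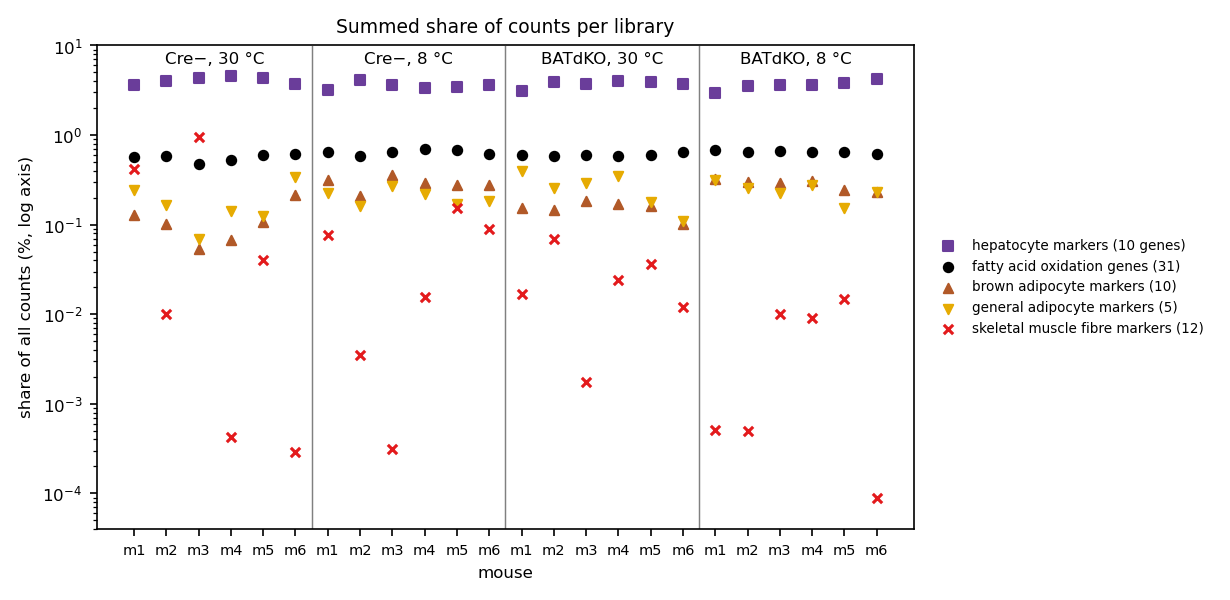
Share of all counts, in percent on a log axis, taken by each marker list and by the 31 fatty acid oxidation genes in each of the 24 libraries, ordered by group and mouse. Hepatocyte markers lie at 2.93% to 4.60% in every group, above the 31 fatty acid oxidation genes at 0.479% to 0.697%, while the muscle markers vary most between mice.

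Together the 31 genes took 0.479% to 0.618% of counts in Cre- mice at 30 °C and 0.582% to 0.697% at 8 °C, and 0.587% to 0.651% and 0.609% to 0.687% in BATdKO mice at the same temperatures. The ranges of warm and cold mice overlapped in both genotypes. Each transcript gave 1 tag near its 3′ end, so levels in CPM (counts divided by the TMM-normalized library size and put on a common scale) can be set side by side between genes without a length correction. In Cre- mice at 30 °C, median levels ran from 6.27 CPM for Ehhadh, the peroxisomal bifunctional enzyme, to 751 CPM for Acaa2, the mitochondrial 3-ketoacyl-CoA thiolase. Because the tissue was analysed whole, fewer cells of a type and less RNA per cell cannot be told apart in any of these values.

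RefSeq promoter windows of GRCm38.p6, 250 bases before to 50 after a gene's start, were matched to 26 of the 31 members. None of the 26 held a PPAR direct repeat (AGGNCANAGGNCA), an estrogen-related receptor element (TCAAGGTCA) or a cAMP response element (TGACGTCA) on either strand. These were found for 0.451%, 0.466% and 2.03% of all 27025 genes with a window. Among the 8757 of them in the count table the shares were 0.354%, 0.285% and 3.47%, so no match among 26 genes says little. The shorter nuclear receptor half-site AGGTCA lies within the second of these motifs, can lie within the first and was searched after the first 3 gave no match. It was found for 3 of the 26 genes (11.5%), against 18.1% of all genes with a window and 15.7% of those in the count table. These 3 stretches are shown because they are the only ones among the members with a letter match to a motif of the receptors linked to this pathway, and capitals mark the half-site, written TGACCT where it lies on the other strand. A match is a description of letters only.
Acadm, chr3:153944857-153944893, minus strand: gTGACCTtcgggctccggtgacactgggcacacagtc
Cpt1a, chr19:3323177-3323242, plus strand: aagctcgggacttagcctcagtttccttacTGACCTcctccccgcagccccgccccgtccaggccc
Echs1, chr7:140116469-140116534, minus strand: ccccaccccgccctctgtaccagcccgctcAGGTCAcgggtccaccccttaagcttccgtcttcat
In the comparisons that follow, Acadm rose in the cold, while Cpt1a and Echs1 did not pass the test.

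In the cold, 13 of the 31 genes were higher in Cre- mice at 8 °C than at 30 °C and 0 were lower, by an adjusted p under 0.1 in edgeR's quasi-likelihood test. Among all 12485 genes tested, 5.57% were called higher and 3.59% lower. The median log2 fold change of the 31 was 0.26, against -0.02 over all genes tested, and 25 of the 31 had a positive value. Of the 13, 12 were listed under roles other than the peroxisomal one: the synthetases Acsl1 and Acsl5, the acyltransferases Cpt2 and Crat, the dehydrogenases Acadm and Acadl, both subunits of the trifunctional protein (Hadha and Hadhb), Eci2 and Decr1 for unsaturated chains, and Etfa and Etfdh of electron transfer. Each of these roles also held genes without a call, among them Acsl4, Cpt1a, Acads, Hadh, Echs1, Acaa2, Eci1 and Etfb. Of the 8 genes listed under the peroxisomal role, named the 8 peroxisomal genes below, 1 was called, Abcd3. Warm and cold mice also differed in days of housing and in their block of library numbers, and neither can be told apart from temperature.

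BATdKO mice gave 8 calls for the same temperature step, all higher, against 3.76% of all genes called higher and 3.31% called lower. The 8 were Acsl5, Cpt2, Acadm, Hadha, Hadhb, Ech1, Decr1 and Abcd3, and the median log2 fold change of the 31 was 0.24, against -0.0026 over all genes. The 2 cold comparisons have no library in common, although 1 model gave the spread for both. Of the members, 7 were called in both (53.8% of the Cre- calls and 87.5% of the BATdKO calls). The same overlap over all genes is not given here, so these shares are not shown to be particular to the members. At an unadjusted p under 0.05, 16 of 31 genes passed in Cre- mice (18.6% of all genes) and 15 in BATdKO mice (17.2% of all genes).

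Brown adipocyte markers rose beside them, with 8 of 10 called higher in each genotype, Ucp1 by a log2 fold change of 3.10 (standard error 0.44, edgeR adjusted p = 2.67e-05) in Cre- and 2.54 (standard error 0.43, edgeR adjusted p = 0.000389) in BATdKO mice. Their summed share of counts was 0.0533% to 0.215% in warm and 0.207% to 0.358% in cold Cre- mice, and 0.102% to 0.183% and 0.232% to 0.323% in BATdKO mice. None of the 10 hepatocyte markers was called in either cold comparison, at 3.60% to 4.60% and 3.15% to 4.13% of counts in Cre- mice and 3.10% to 4.00% and 2.93% to 4.23% in BATdKO mice. The general adipocyte markers took 0.0700% to 0.342% of counts in warm and 0.161% to 0.268% in cold Cre- mice, and 0 of 5 were called higher and 1 lower in each genotype. Of the other lists, 3 of 5 endothelial markers were higher in cold Cre- and 2 of 5 in cold BATdKO mice, 2 of 5 stromal markers were lower in cold BATdKO mice, 1 of 3 white adipocyte markers was lower in each genotype, 1 of 12 muscle markers was lower in cold Cre- mice, and 0 of 5 macrophage markers were called in either. No marker of these lists was at 0 throughout a group, and their part in the rise of the fatty acid oxidation genes was not tested. Leaving out the Cre- mice m1 and m3 at 30 °C, highest in muscle markers, gave 10 higher calls in Cre- mice (Acsl1, Eci2 and Abcd3 were lost), leaving out the shallow Cre- mouse m4 with m3 gave 12, and leaving out both mice m6 at 30 °C gave 15 (Hadh and Ech1 were gained). The same 3 fits gave 10, 10 and 7 higher calls in BATdKO mice, the last with Acox3 called lower, Hadhb and Ech1 lost and Acaa2 gained. Counts over all genes in these 3 fits are not given here, so these changes are not shown to be particular to the members. Scaled to total counts alone, the median of all genes moved by -0.18 in Cre- and -0.19 in BATdKO mice, and the members then gave 10 higher and 1 lower call in Cre- mice and 5 higher and 3 lower in BATdKO mice, with their median 0.29 and 0.24 above that of all genes. The lower calls were Acaa1a in both genotypes and Acox3 and Echs1 in BATdKO mice. The higher calls lost were Acsl1, Eci2 and Abcd3 in Cre- mice and Hadhb, Ech1 and Decr1 in BATdKO mice.

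**Figure D2:**
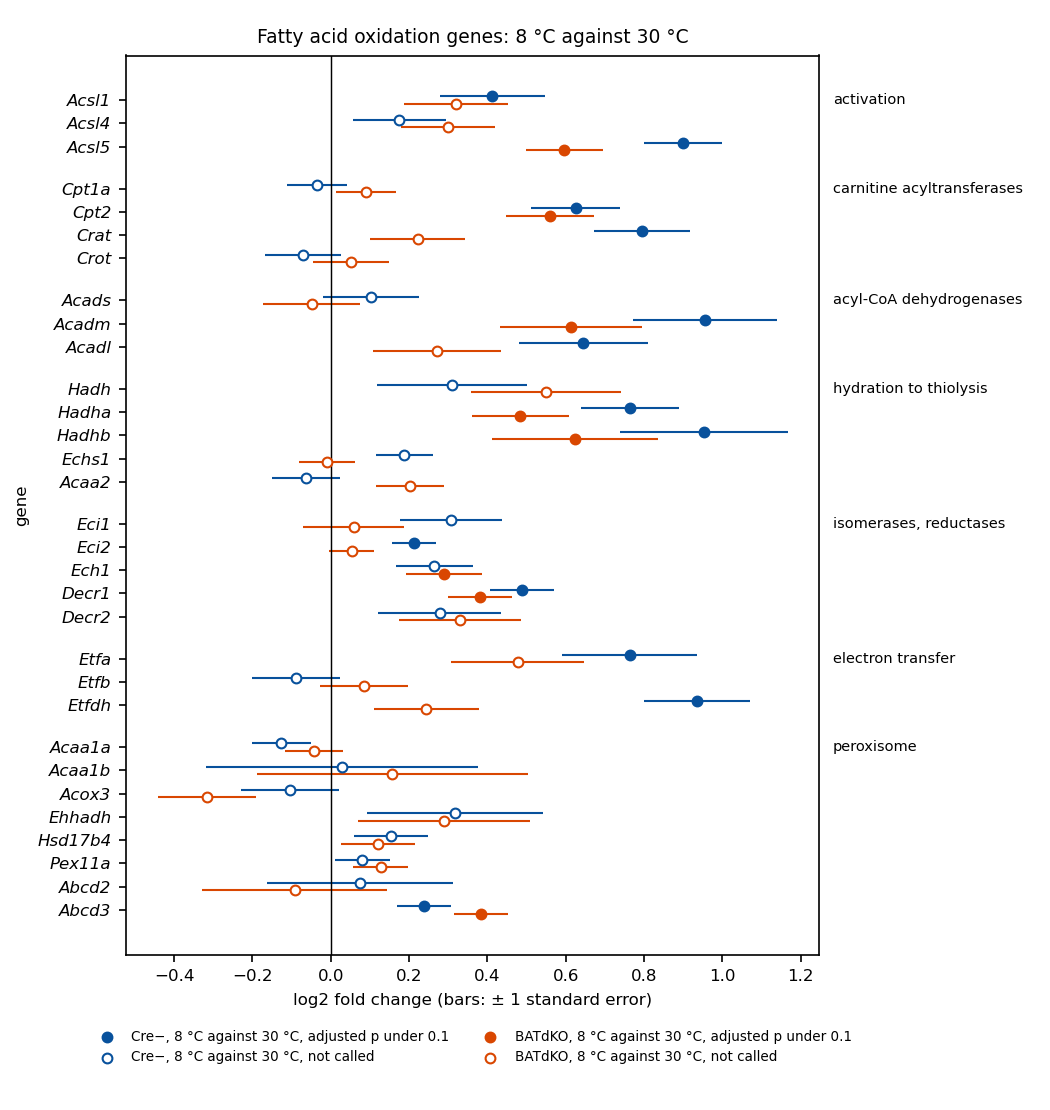
Log2 fold change of each of the 31 genes at 8 °C against 30 °C in Cre- mice (blue) and BATdKO mice (orange), ordered by role, with bars of 1 standard error and filled points for an adjusted p under 0.1. Filled points number 13 in Cre- and 8 in BATdKO mice, all right of 0, and the peroxisomal group holds 1 gene with filled points, Abcd3.

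Activation of fatty acids was led by Acsl5, a long-chain acyl-CoA synthetase on chromosome 19 (GRCm38, 55251938 to 55297720). Acsl5 had 95.1 to 127 CPM (median 104) in Cre- mice at 30 °C and 165 to 252 CPM (median 193) at 8 °C, so every cold mouse lay above every warm mouse (log2 fold change 0.90, standard error 0.10, edgeR adjusted p = 1.15e-06). In BATdKO mice it had 78.1 to 103 CPM (median 96.5) at 30 °C and 116 to 165 CPM (median 139) at 8 °C, again without overlap (log2 fold change 0.60, standard error 0.10, edgeR adjusted p = 0.000373). Acsl1, the main synthetase of adipocytes, had 434 to 816 CPM (median 493) in warm and 607 to 819 CPM (median 725) in cold Cre- mice (log2 fold change 0.41, standard error 0.13, edgeR adjusted p = 0.0667). The highest warm value was that of mouse m6, and the other 5 warm mice stood at 498 CPM or less. Of the 24 fits that each left out 1 library, 15 kept the call of Acsl1, and 9 lost it (Cre- mice m1 to m5 at 30 °C and m1, m4, m5 and m6 at 8 °C), with adjusted p up to 0.163. Under the BATdKO label Acsl1 had 543 to 998 CPM (median 750.4) at 30 °C and 861 to 1161 CPM (median 940.2) at 8 °C (log2 fold change 0.32, standard error 0.13, edgeR adjusted p = 0.197). Acsl4, a synthetase that prefers arachidonate, had median levels of 16.5 to 19.2 CPM in Cre- mice and a log2 fold change of 0.18 (standard error 0.12, edgeR adjusted p = 0.464). Exons of Acsl1 and Acsl5 overlap genes on the other strand that are also in the table, and whether counting used strand is not given in the sources used here.

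The measured genes of entry into mitochondria were uneven, and Cpt1b, the muscle and brown fat form, is not among them. The level of Cpt1a, the liver form, therefore does not show how the CPT1 step behaved in brown adipocytes. Slc25a20 of the same shuttle, described further below, rose in both genotypes. Cpt1a, the liver form of the enzyme that makes acylcarnitines at the outer membrane, had 81.0 to 105 CPM (median 97.9) in warm and 86.0 to 99.0 CPM (median 91.5) in cold Cre- mice, with overlapping groups (log2 fold change -0.035, standard error 0.078, edgeR adjusted p = 0.998). In BATdKO mice it had 80.5 to 105 CPM (median 88.5) at 30 °C and 87.6 to 108 CPM (median 96.0) at 8 °C (log2 fold change 0.089, standard error 0.077, edgeR adjusted p = 0.611), and the interval of 2 standard errors around this difference ran from -0.065 to 0.243. Cpt2, which turns acylcarnitines back into acyl-CoA inside the mitochondrion, had 49.2 to 80.4 CPM (median 59.5) in warm and 79.4 to 116 CPM (median 96.9) in cold Cre- mice (log2 fold change 0.63, standard error 0.11, edgeR adjusted p = 0.000581). The groups met at their edges only, where the highest warm mouse (m6) passed the lowest cold mouse (m2). Under the BATdKO label Cpt2 had 51.2 to 74.4 CPM (median 70.6) and 84.9 to 125 CPM (median 96.0), with every cold mouse above every warm mouse (log2 fold change 0.56, standard error 0.11, edgeR adjusted p = 0.0026). Crat, which exchanges short acyl groups between carnitine and coenzyme A, had 17.8 to 42.9 CPM (median 31.2) in warm and 42.3 to 59.5 CPM (median 58.1) in cold Cre- mice (log2 fold change 0.79, standard error 0.12, edgeR adjusted p = 9.15e-05). Its levels in BATdKO mice were 39.7 to 49.5 CPM (median 42.1) at 30 °C and 38.1 to 58.4 CPM (median 52.1) at 8 °C, with a log2 fold change of 0.22 (standard error 0.12, edgeR adjusted p = 0.361). Crot, the peroxisomal octanoyltransferase, had median levels of 124 CPM in warm and 118 CPM in cold Cre- mice, a log2 fold change of -0.071 (standard error 0.10, edgeR adjusted p = 0.776).

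Of the acyl-CoA dehydrogenases, which open each round of oxidation, Acadm (medium chains) and Acadl (long chains) were higher in the cold and Acads (short chains) was not called. Acadm, on chromosome 3 (153922357 to 153944632, the gene whose half-site is printed above), had 160.4 to 326 CPM (median 257) in warm and 305 to 706 CPM (median 486) in cold Cre- mice (log2 fold change 0.96, standard error 0.18, edgeR adjusted p = 0.00118). The cold mouse m2 lay within the warm range and the other 5 cold mice above it. Acadm in BATdKO mice had 279 to 457 CPM (median 329) at 30 °C and 428 to 687 CPM (median 489) at 8 °C (log2 fold change 0.61, standard error 0.18, edgeR adjusted p = 0.0509), a call lost in 4 of the 24 fits that left out 1 library (BATdKO mice m2 and m5 at 30 °C and m1 and m2 at 8 °C), with adjusted p up to 0.132. Acadl had 185 to 510.1 CPM (median 363) in warm and 427 to 628 CPM (median 565) in cold Cre- mice (log2 fold change 0.64, standard error 0.16, edgeR adjusted p = 0.0158). It had 371 to 507 CPM (median 455) and 409 to 711 CPM (median 539) in BATdKO mice, with ranges that overlapped widely (log2 fold change 0.27, standard error 0.16, edgeR adjusted p = 0.413). Acads had median levels between 225 and 237 CPM over the 4 groups, and its log2 fold change in the cold was 0.10 (standard error 0.12, edgeR adjusted p = 0.732) in Cre- mice.

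The later steps of each round were led by Hadha and Hadhb, the α and β subunits of the mitochondrial trifunctional protein, which lie head to head on chromosome 5 with 85 bases between their annotated starts (GRCm38, 30118304 to 30155162 and 30155248 to 30184593). Hadha had 336 to 607 CPM (median 435) in warm and 546 to 935 CPM (median 770.4) in cold Cre- mice (log2 fold change 0.76, standard error 0.12, edgeR adjusted p = 0.000171), and only the warm mouse m6 lay above the lowest cold mouse. In BATdKO mice Hadha had 498 to 580.4 CPM (median 538) at 30 °C and 564 to 900.1 CPM (median 756) at 8 °C (log2 fold change 0.48, standard error 0.12, edgeR adjusted p = 0.0209). Hadhb had 56.1 to 204 CPM (median 154) in warm and 183 to 335 CPM (median 293) in cold Cre- mice (log2 fold change 0.95, standard error 0.21, edgeR adjusted p = 0.00593), with mouse m3 lowest of the warm group. Under the BATdKO label Hadhb had 139 to 234 CPM (median 175) and 211 to 385 CPM (median 273) (log2 fold change 0.62, standard error 0.21, edgeR adjusted p = 0.0965), and 9 of the 24 fits that left out 1 library kept this call. It was lost without the Cre- mice m2 or m4 at 30 °C or m1, m3, m4, m5 or m6 at 8 °C, and without the BATdKO mice m2, m3, m5 or m6 at 30 °C or m1 to m4 at 8 °C, with adjusted p up to 0.219. Without both mice m6 at 30 °C this call was lost too (edgeR adjusted p = 0.155). Hadh, the dehydrogenase of medium and short 3-hydroxyacyl chains, had log2 fold changes of 0.31 (standard error 0.19, edgeR adjusted p = 0.415) in Cre- and 0.55 (standard error 0.19, edgeR adjusted p = 0.107) in BATdKO mice. DESeq2 (adjusted p = 0.0672) and the model of the BATdKO groups alone (edgeR adjusted p = 0.0958) called Hadh higher in cold BATdKO mice. Without both mice m6 at 30 °C Hadh was called in Cre- mice (log2 fold change 0.46, edgeR adjusted p = 0.0573). Echs1, the short-chain enoyl-CoA hydratase, and Acaa2, the thiolase, were not called by the edgeR fit of all 24 libraries, with log2 fold changes of 0.19 and -0.064 in Cre- and -0.009 and 0.20 in BATdKO mice. Without both mice m6, Acaa2 was called higher in cold BATdKO mice (log2 fold change 0.30, edgeR adjusted p = 0.0131).

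The 5 enzymes that rearrange double bonds of unsaturated chains had log2 fold changes between 0.21 and 0.49 in cold Cre- mice. Decr1, the mitochondrial 2,4-dienoyl-CoA reductase, had 116 to 166 CPM (median 139.7) in warm and 169.6 to 222 CPM (median 197) in cold Cre- mice, without overlap (log2 fold change 0.49, standard error 0.083, edgeR adjusted p = 0.000267). In BATdKO mice it had 144 to 176 CPM (median 159.9) and 183 to 242 CPM (median 209.9), also without overlap (log2 fold change 0.38, standard error 0.082, edgeR adjusted p = 0.00537). Eci2, an enoyl-CoA isomerase of peroxisomes and mitochondria, had 61.9 to 69.7 CPM (median 65.5) in warm and 72.5 to 81.9 CPM (median 75.1) in cold Cre- mice, a small and non-overlapping difference after TMM scaling (log2 fold change 0.21, standard error 0.057, edgeR adjusted p = 0.0228). Scaled to total counts alone, the log2 fold change was 0.037 and was not called (edgeR adjusted p = 0.729). Eci2 in BATdKO mice had 61.0 to 70.0 CPM (median 69.3) and 67.5 to 75.8 CPM (median 68.5) (log2 fold change 0.053, standard error 0.057, edgeR adjusted p = 0.698). Ech1, a dienoyl-CoA isomerase, had 134 to 211 CPM (median 185) in warm and 189 to 262 CPM (median 220.2) in cold Cre- mice and was not called (log2 fold change 0.26, standard error 0.10, edgeR adjusted p = 0.119). It had 169 to 209.9 CPM (median 185) and 202 to 260.1 CPM (median 231) in BATdKO mice, where it passed the threshold narrowly (log2 fold change 0.29, standard error 0.10, edgeR adjusted p = 0.0955) and kept the call in 8 of the 24 fits that left out 1 library. The losses came without the Cre- mice m1, m2 or m5 at 30 °C or m1, m3, m5 or m6 at 8 °C, and without the BATdKO mice m1, m2, m3, m5 or m6 at 30 °C or m1 to m4 at 8 °C, with adjusted p up to 0.197. Eci1, the main mitochondrial isomerase, and Decr2, the peroxisomal reductase, had log2 fold changes of 0.31 and 0.28 in Cre- mice and 0.058 and 0.33 in BATdKO mice, with no call.

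Of the 3 genes of electron transfer from the dehydrogenases, 2 were called in Cre- and 0 in BATdKO mice by the edgeR fit of all 24 libraries. The difference between the genotypes is tested further below. Etfdh, the ETF dehydrogenase that passes electrons to ubiquinone (chromosome 3, 79603788 to 79629500), had 27.3 to 54.9 CPM (median 38.0) in warm and 51.8 to 87.4 CPM (median 74.0) in cold Cre- mice (log2 fold change 0.93, standard error 0.14, edgeR adjusted p = 3.93e-05), and mouse m6 was the warm mouse that reached the cold range. In BATdKO mice Etfdh had 40.5 to 53.9 CPM (median 51.5) at 30 °C and 49.0 to 71.0 CPM (median 57.7) at 8 °C (log2 fold change 0.24, standard error 0.13, edgeR adjusted p = 0.36). Etfa, the α subunit of ETF, had 37.2 to 84.7 CPM (median 62.1) in warm and 74.8 to 135 CPM (median 108) in cold Cre- mice (log2 fold change 0.76, standard error 0.17, edgeR adjusted p = 0.00601). It had 58.6 to 82.4 CPM (median 74.5) and 77.5 to 152 CPM (median 95.6) in BATdKO mice, with mouse m1 far above the other cold mice (log2 fold change 0.48, standard error 0.17, edgeR adjusted p = 0.116). DESeq2 (adjusted p = 0.0791) and the model of the BATdKO groups alone (edgeR adjusted p = 0.0522) did call Etfa higher in cold BATdKO mice. Etfb, the β subunit that pairs with the α subunit, had median levels of 434 CPM in warm and 401 CPM in cold Cre- mice, and a log2 fold change of -0.088 (standard error 0.11, edgeR adjusted p = 0.753).

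**Figure D3:**
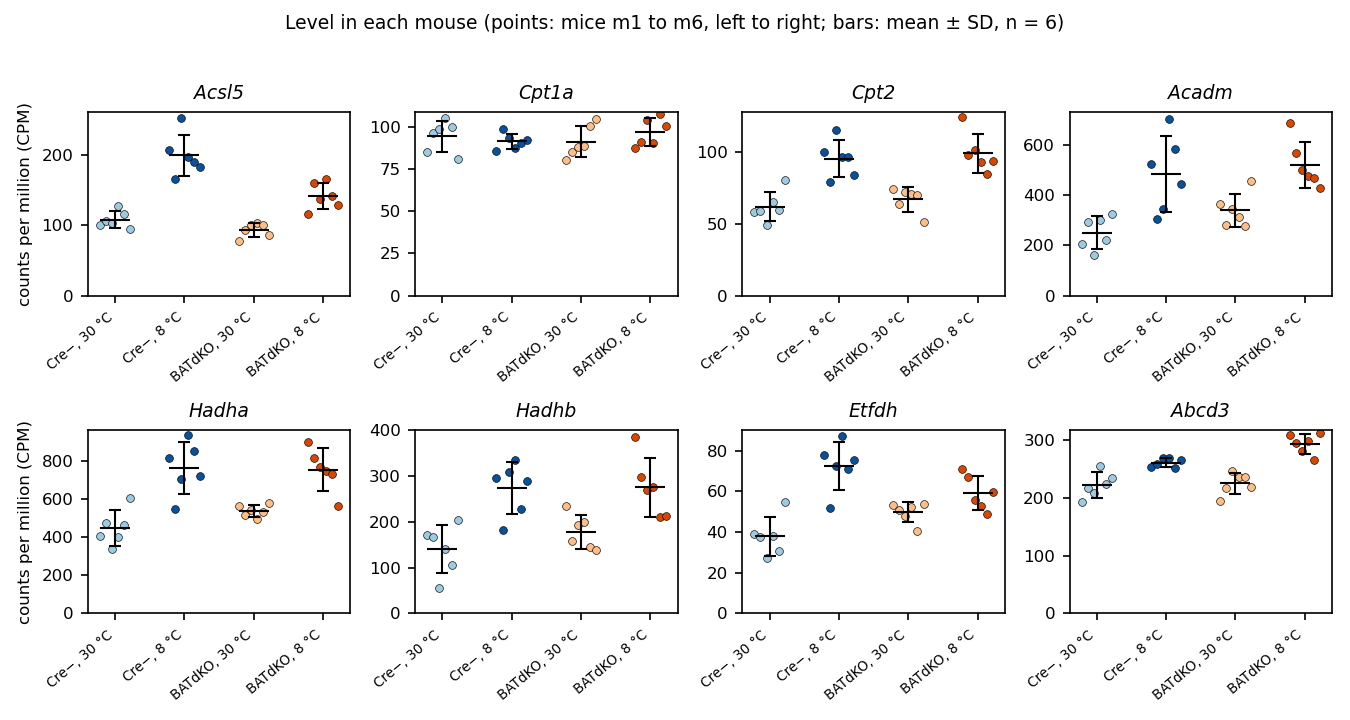
Level in CPM (linear axis from 0) of 8 genes in each of the 24 mice, with points for mice m1 to m6 from left to right in each group and bars for the mean and SD (n = 6). Acsl5 separates warm from cold mice in both genotypes, Cpt1a lies between 80.5 and 108 CPM in all mice, and Etfdh reaches 87.4 CPM in cold Cre- and 71.0 CPM in cold BATdKO mice.

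Of the 8 peroxisomal genes, 7 were not called between the temperatures in either genotype, and the median log2 fold change of the 8 was 0.078 in Cre- and 0.12 in BATdKO mice. Abcd3, a transporter of long-chain acyl-CoA in the peroxisomal membrane, had 193 to 256 CPM (median 221) in warm and 251 to 269.6 CPM (median 262) in cold Cre- mice (log2 fold change 0.24, standard error 0.069, edgeR adjusted p = 0.0355), a call lost without the Cre- mouse m1 at 30 °C (adjusted p = 0.105). It was also lost when scaled to total counts alone (log2 fold change 0.069, edgeR adjusted p = 0.487). In BATdKO mice it had 195 to 246 CPM (median 228) and 265 to 312 CPM (median 297), with every cold mouse above every warm mouse (log2 fold change 0.38, standard error 0.069, edgeR adjusted p = 0.000813). Hsd17b4, the multifunctional enzyme of peroxisomal oxidation, had 40.7 to 60.1 CPM (median 50.4) in warm and 45.5 to 62.3 CPM (median 55.4) in cold Cre- mice (log2 fold change 0.15, standard error 0.094, edgeR adjusted p = 0.407). Its levels in BATdKO mice were 41.8 to 54.9 CPM (median 48.0) and 42.8 to 61.6 CPM (median 53.7) (log2 fold change 0.12, standard error 0.094, edgeR adjusted p = 0.559), and the groups overlapped in both genotypes. The other 6 were the thiolases Acaa1a and Acaa1b, the branched-chain oxidase Acox3, the bifunctional enzyme Ehhadh, the proliferation factor Pex11a and the transporter Abcd2, and their log2 fold changes lay between -0.13 (Acaa1a) and 0.32 (Ehhadh) in Cre- mice and between -0.32 (Acox3) and 0.29 (Ehhadh) in BATdKO mice. Acaa1a and Acaa1b are near-identical copies on chromosome 9, so reads may have been split between them and both values are uncertain. Of the 23 genes of the other roles, 12 were called in Cre- and 7 in BATdKO mice, against 1 of these 8 in each. Over all genes tested, 5.57% and 3.76% were called higher. The part of hepatocyte RNA, present in every library, in this split was not tested. The split is by list, as the 23 include Crot, Decr2 and Eci2, placed wholly or partly in peroxisomes above. Among the 8, Ehhadh, Acaa1b and Abcd2 had group medians of 6.27 to 17.1 CPM. Their standard errors in Cre- mice were 0.22 to 0.35, so a rise as small as that of Abcd3 could be missed.

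The same mice were often at the edge of their group. In the warm Cre- group, mouse m3 was lowest for 17 of the 31 genes, among them Hadha, Hadhb, Acadm and Etfdh but of the 8 peroxisomal genes Acaa1b and Acox3 alone, and mouse m6 was highest for 11, none of them peroxisomal, while in the cold Cre- group m2 was lowest for 13 and m4 highest for 12. BATdKO mouse m1 was highest for 16 genes at 8 °C. Mouse m3 of the warm Cre- group also had the lowest brown adipocyte marker share of that group (0.0533%) and the highest muscle marker share, and mouse m6 the highest brown adipocyte share (0.215%). Mouse m2 had the lowest brown adipocyte share of the cold Cre- group (0.207%). The part of these markers in the spread between mice was not tested.

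**Figure D4:**
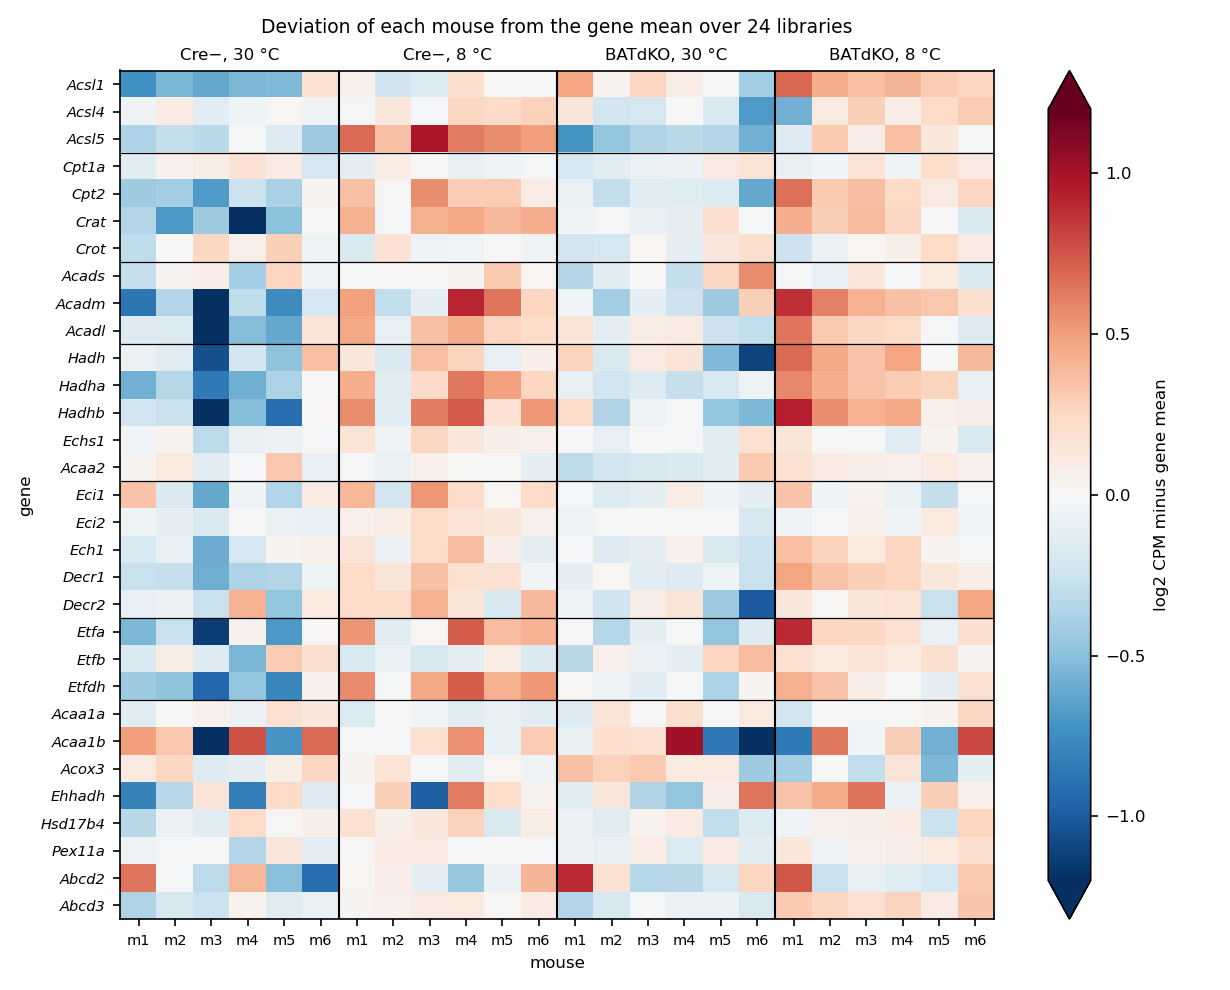
Deviation of log2 CPM from the mean of each gene over 24 libraries, with a row for each of the 31 genes ordered by role and a column for each mouse, and colours cut at 1.2 in either direction. The warm Cre- mouse m3 is lowest of its group for 17 genes, the cold BATdKO mouse m1 is highest of its group for 16, and 7 of the 8 rows of the peroxisomal block at the bottom are genes with no call between temperatures.

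Between the labels at 8 °C, 1 of the 31 genes differed: Acsl5 was lower in libraries labelled BATdKO, at 116 to 165 CPM (median 139), than in those labelled Cre-, at 165 to 252 CPM (median 193) (log2 fold change -0.49, standard error 0.10, edgeR adjusted p = 0.00679). Among all genes, 0.697% were called higher and 1.12% lower. The 2 groups met at the edge, where the highest BATdKO mouse passed the lowest Cre- mouse by less than 1 CPM, and the call held in each of the 24 fits that left out 1 library (adjusted p up to 0.0249). Acsl1 pointed the other way, at 607 to 819 CPM (median 725) under the Cre- label and 861 to 1161 CPM (median 940.2) under the BATdKO label, with no overlap between the groups but no call (log2 fold change 0.43, standard error 0.13, edgeR adjusted p = 0.144). DESeq2, the tool of the study, called Acsl1 as well, as did the fit without both mice m6 at 30 °C, and the model of the 2 cold groups alone called Acsl1 and Etfb. The median log2 fold change of the 31 genes was 0.027, against -0.0001 over all genes, with 17 values positive and 14 negative, and 5 genes had an unadjusted p under 0.05 (9.24% of all genes).

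For 4 enzymes of the middle of the pathway the differences between the labels in the cold were smaller than their standard errors. Hadha differed by a log2 fold change of -0.018 (standard error 0.12), Hadhb by 0.008 (0.21) and Acadm by 0.10 (0.18). For Cpt2 the value was 0.051 (0.11), and the interval of 2 standard errors ran from -0.17 to 0.27. Etfdh differed by more, at -0.30 (standard error 0.13, edgeR adjusted p = 0.446), without a call. A difference that misses the threshold does not show equal levels: for Hadhb, with 183 to 335 CPM in Cre- and 211 to 385 CPM in BATdKO mice, 2 standard errors either side reach from -0.41 to 0.43. Muscle markers had a median log2 fold change of -3.15 between the labels at 8 °C, with 0 of 12 called (11 at an unadjusted p under 0.05), hepatocyte markers had 0 of 10 called, and neither was tested for its part in these values.

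At 30 °C, 0 of the 31 genes was called between the labels by edgeR, where 0 of the 12485 genes passed in either direction (0.0% higher and 0.0% lower). DESeq2 called 1 member, Acsl1. At an unadjusted p under 0.05, 6 members passed, all higher under the BATdKO label (10.4% of all genes passed in either direction): Acsl1, Crat, Etfdh, Acadm, Decr1 and Hadha. Their log2 fold changes were 0.52 for Acsl1 (434 to 816 CPM in Cre- and 543 to 998 CPM in BATdKO mice), 0.42 for Crat, 0.39 for Etfdh, 0.44 for Acadm, 0.20 for Decr1 and 0.26 for Hadha, with overlapping groups for each. Without both mice m6 at this temperature, 5 members passed the adjusted threshold: Acsl1 (log2 fold change 0.77), Crat (0.53), Etfdh (0.52) and Decr1 (0.28) were higher and Acaa2 (-0.28) lower in the libraries labelled BATdKO (edgeR adjusted p from 3.54e-05 to 0.066). Without the Cre- mouse m6 alone, Acsl1, Crat and Etfdh passed, and without the BATdKO mouse m6 alone, Acsl1 did. These are the mice whose Tbl1xr1 level went with the other label, so the count at 30 °C depended on these 2 libraries. Counts over all genes in these fits are not given here, so the added calls are not shown to be particular to the members. Of the brown adipocyte markers, 8 of 10 had positive values between the labels at 30 °C, with a median log2 fold change of 0.43 and 0 called. Muscle markers had a median of -3.43 with 0 of 12 called (10 at an unadjusted p under 0.05), and the part of either in these values was not tested.

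**Figure D5:**
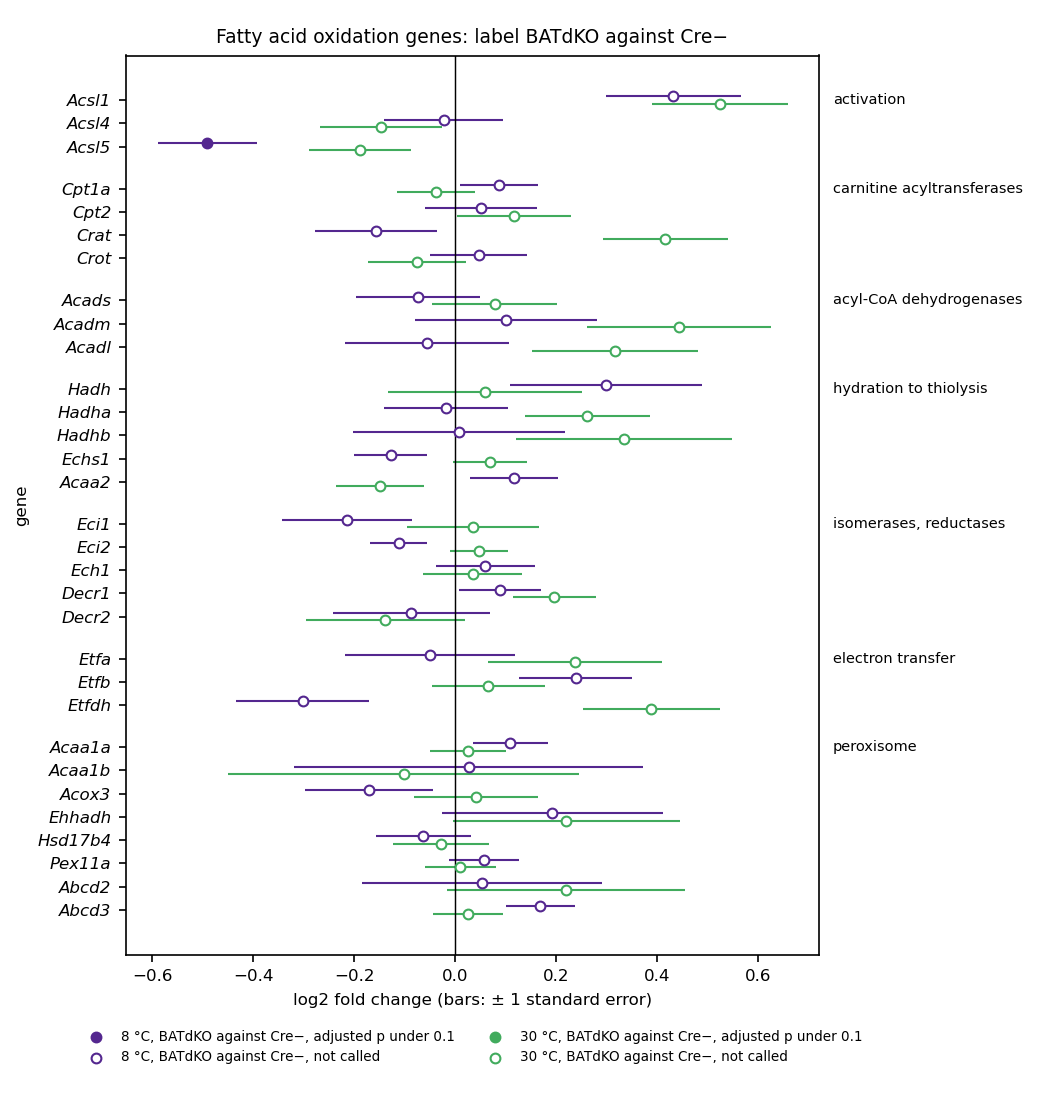
Log2 fold change of each of the 31 genes in libraries labelled BATdKO against those labelled Cre- at 8 °C (purple) and 30 °C (green), with bars of 1 standard error and filled points for an adjusted p under 0.1. The filled point is Acsl5 at 8 °C, at -0.49, and Acsl1 stands at 0.43 and 0.52 without passing.

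Whether the cold response differed between the genotypes was tested directly by the interaction of genotype and temperature, where 0 of the 31 had an adjusted p under 0.1 (0.0561% of all genes were called higher and 0.04% lower). The log2 fold change of Etfdh in the cold differed by -0.69 (standard error 0.19, edgeR adjusted p = 0.243), the smallest adjusted p among the 31, and that of Crat by -0.57 (standard error 0.17, edgeR adjusted p = 0.313), where a negative value is a smaller rise in BATdKO than in Cre- mice. Acsl5 had -0.30 (standard error 0.14, edgeR adjusted p = 0.594), and Acaa2 had 0.27 (standard error 0.12, edgeR adjusted p = 0.591) in the other direction. These 4 had an unadjusted p under 0.05 (8.05% of all genes did). The 6 genes called in Cre- but not in BATdKO mice (Acsl1, Crat, Acadl, Eci2, Etfa and Etfdh) are therefore not shown to respond differently. Etfdh and Crat passed without the Cre- mouse m6 at 30 °C. Etfdh passed without the Cre- mouse m2 at 8 °C and when scaled to total counts, and Etfdh (-0.83, adjusted p = 0.0403) and Crat (-0.69, adjusted p = 0.0787) passed without both mice m6 at 30 °C. The interaction values had a median of -0.092 over the 31 genes, against 0.0084 over all genes, and 19 of 31 were negative.

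Other genes of the pathway were taken from a list of 68, of which 66 were in the table and tested. In Cre- mice 11 of the 66 were higher and 1 lower in the cold, in BATdKO mice 5 were higher and 0 lower, and between the labels at 8 °C 2 were lower and 0 higher. Of all genes tested, 5.57% were called higher and 3.59% lower in cold Cre- mice, and 3.76% and 3.31% in cold BATdKO mice. Between the labels at 8 °C these shares were 0.697% and 1.12%. At 30 °C and in the interaction 0 of the 66 passed, with 8 and 6 at an unadjusted p under 0.05 (10.4% and 8.05% of all genes). Without the Cre- mice m1 and m3 at 30 °C, 7 were higher and 1 lower in cold Cre- mice, and scaled to total counts 8 were higher and 9 lower in Cre- and 3 higher and 5 lower in BATdKO mice. The median log2 fold change of the 66 in the cold was 0.16 in Cre- and 0.12 in BATdKO mice, against -0.02 and -0.0026 over all genes.

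Genes of the carnitine shuttle and of its control were among those called. Slc25a20, the carnitine-acylcarnitine translocase that works between Cpt1 and Cpt2 enzymes, had 33.5 to 63.3 CPM (median 43.5) in warm and 71.9 to 119.5 CPM (median 98.5) in cold Cre- mice, without overlap (log2 fold change 1.06, standard error 0.17, edgeR adjusted p = 0.000106). It had 27.3 to 58.9 CPM (median 48.1) and 70.9 to 117 CPM (median 92.0) in BATdKO mice, again without overlap (log2 fold change 0.98, standard error 0.17, edgeR adjusted p = 0.000439). All 3 genes that set malonyl-CoA, the inhibitor of CPT1, were higher in cold Cre- mice. Acacb, the carboxylase that makes malonyl-CoA at mitochondria, rose with log2 fold changes of 0.95 (standard error 0.13, edgeR adjusted p = 1.88e-05) in Cre- and 0.67 (standard error 0.13, edgeR adjusted p = 0.00194) in BATdKO mice. Mlycd, the decarboxylase that removes it, rose by less, with log2 fold changes of 0.26 (standard error 0.088, edgeR adjusted p = 0.087) and 0.27 (standard error 0.088, edgeR adjusted p = 0.085), calls kept in 15 and 12 of the 24 fits that left out 1 library. Acaca, the carboxylase of fatty acid synthesis, had 176 to 364 CPM (median 310.0) in warm and 397 to 598 CPM (median 569) in cold Cre- mice (log2 fold change 0.93, standard error 0.20, edgeR adjusted p = 0.004).

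Acaca and Slc27a1 were the 2 genes of this list that differed between the labels at 8 °C. Acaca had 148 to 355 CPM (median 302) in libraries labelled BATdKO, all below those labelled Cre- (log2 fold change -0.91, standard error 0.20, edgeR adjusted p = 0.0153). Slc27a1, a fatty acid transport protein with acyl-CoA synthetase activity, had 10.2 to 21.2 CPM (median 12.9) under the Cre- label and 4.69 to 9.45 CPM (median 6.26) under the BATdKO label (log2 fold change -1.03, standard error 0.24, edgeR adjusted p = 0.0251), and these groups did not overlap either. Both calls held in each of the 24 fits that left out 1 library (adjusted p up to 0.0463 for Acaca and 0.0882 for Slc27a1). With Acsl5 they made 3 lower genes, against 0 higher, the shares of all genes given above being 1.12% and 0.697%. Slc27a1 was higher in the cold in Cre- mice (log2 fold change 0.89, standard error 0.23, edgeR adjusted p = 0.0186), and its log2 fold change in BATdKO mice was 0.013 (standard error 0.25, edgeR adjusted p = 0.996). Their interaction values were -0.71 (standard error 0.28, edgeR adjusted p = 0.511) for Acaca and -0.88 (standard error 0.34, edgeR adjusted p = 0.497) for Slc27a1.

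Of the receptors and coactivators linked to these genes, 2 of 11 were higher in cold Cre- mice and 1 in cold BATdKO mice. Ppargc1a, which encodes PGC-1α, had 13.1 to 22.2 CPM (median 16.2) in warm and 29.9 to 52.9 CPM (median 38.4) in cold Cre- mice (log2 fold change 1.27, standard error 0.16, edgeR adjusted p = 3.71e-06). In BATdKO mice it had 17.0 to 26.0 CPM (median 22.5) and 31.4 to 57.1 CPM (median 38.8) (log2 fold change 0.95, standard error 0.15, edgeR adjusted p = 0.00023), and warm and cold mice did not overlap in either genotype. Ppargc1b, its relative PGC-1β, was higher in cold Cre- mice, with a log2 fold change of 0.49 (standard error 0.13, edgeR adjusted p = 0.0233), and it was not called without the Cre- mice m3 and m4 at 30 °C, where its log2 fold change was 0.32 (adjusted p = 0.107). Ppara, the receptor best known for this pathway in liver, had log2 fold changes of 0.082 (standard error 0.082, edgeR adjusted p = 0.663) in Cre- and -0.068 (standard error 0.081, edgeR adjusted p = 0.735) in BATdKO mice, and is named here after its values were seen. Among peroxisomal and ketone genes, Hsdl2 rose in cold Cre- mice with a log2 fold change of 0.46 (standard error 0.13, edgeR adjusted p = 0.0291), as did the peroxin Pex13 with 0.74 (standard error 0.22, edgeR adjusted p = 0.0474) and the mitochondrial thiolase Acat1 with 0.38 (standard error 0.11, edgeR adjusted p = 0.0279). The branched-chain oxidase Acox2 rose in cold BATdKO mice with 0.29 (standard error 0.095, edgeR adjusted p = 0.0808), a call kept in 15 of the 24 fits that left out 1 library. Those of Hsdl2, Pex13 and Acat1, and that of Mlycd in Cre- mice, were lost without the Cre- mice m1 and m3 at 30 °C, and those of Pex13 and Mlycd also without m3 and m4. Acad12, an acyl-CoA dehydrogenase family member, was the 1 gene lower in cold Cre- mice, with a log2 fold change of -0.57 (standard error 0.15, edgeR adjusted p = 0.0207). Of 31 further peroxisomal genes, 2 were called in Cre- and 1 in BATdKO mice, a share of 6.45% and 3.23%. All 3 calls were higher, and the shares of all genes called higher were near these at 5.57% and 3.76%.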

How the data were processed

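The authors made QuantSeq 3′ libraries of brown fat RNA, used BBDuk for trimming, STAR for alignment of forward reads to GRCm38 and Rsubread for counting, and deposited unnormalized gene counts of 24 libraries. The study's methods describe removal of outliers after quality control, and the table used here holds 6 libraries in each group. The annotation release, the strand setting and the rule by which genes were left out are not given in the sources used here. The deposited counts were fitted with edgeR 4.0.16 (limma 3.58.1, R 4.3.3) after TMM scaling and filterByExpr, which kept 12485 genes and removed 130, and 1 quasi-likelihood fit held the mean of every group. Benjamini-Hochberg adjustment ran over all 12485 genes, with the study's threshold of 0.1. The standard error was taken as the size of the log2 fold change over the square root of F. Where a gene's spread falls below Poisson, edgeR takes the larger p of a Poisson fit, which raised that of Cpt1a. On simulated counts for genotype at 8 °C, with 200 of 12385 genes changed by a log2 fold change of 1, edgeR recovered 170, with 0 of wrong sign and 20 false calls. The members' values in this comparison ran from -0.491 to 0.432, so this recovery does not apply to changes of their size.

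Alternatives were DESeq2 1.42.0, RLE and total-count scaling, no filter, a mean count of at least 10, robust dispersion, the compared groups alone, an unadjusted p under 0.05 and leaving out libraries. Mouse numbers pair no mice between groups, and nothing in the labels says that mice share a litter or batch. Members and lists were chosen with earlier results of these data known. All members are named, those called with levels, as are 9 chosen enzymes whatever their test gave (7 of them in the table), and of the other pathway genes at most 12 called ones by smallest p. Gene positions are from GENCODE vM21, where exons of 2 members overlap those of a same-strand gene and exons of 11 overlap an opposite-strand gene.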

Additional observations from a re-analysis of the deposited data

Results flagged for a closer look

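In 10 of 124 groups of 6 mice (31 genes in 4 groups), 1 mouse lay apart from the other 5 by the gap between it and its nearest neighbour relative to the range of the group. Chance alone flags about 1 in 20 groups. At 30 °C the Cre- mouse m6 had an Acsl1 level of 9.674 on the log2 CPM scale, the highest of its group, and the Cre- mouse m3 an Echs1 level of 6.874, the lowest. The BATdKO mouse m6 at 30 °C had the highest Acaa2 level (9.861) and the lowest levels of Eci2 (5.937) and Acox3 (3.35) on the same scale, and the BATdKO mouse m5 the highest Crat level (5.636). At 8 °C the Cre- mouse m2 had the lowest Crat level (5.413) and the Cre- mouse m5 the highest Acads level (8.191). The BATdKO mouse m1 at 8 °C had the lowest Acsl4 level (3.537) and the highest Etfa level (7.251). Of the 10, 4 belong to a mouse m6 at 30 °C.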

How the results depend on the processing

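The cold calls in Cre- mice numbered 10 to 16 over all alternatives, against 13, and no called gene changed direction under any. The other counts moved as follows. For cold in BATdKO mice (8 calls) DESeq2 gave 10 and an unadjusted p under 0.05 gave 15. For the labels at 8 °C (1 call) DESeq2 gave 2, the model of the compared groups 3, the fit without both mice m6 at 30 °C 2, the fit without the 2 libraries highest in muscle markers 2 and an unadjusted p 5. For the labels at 30 °C (0 calls) DESeq2 gave 1, the fit without both mice m6 5 and an unadjusted p 6. For the interaction (0 calls) total-count scaling gave 1, the fit without both mice m6 2 and an unadjusted p 4. Leaving out 1 library at a time gave 12 to 16 calls for cold in Cre- mice, 5 to 11 for cold in BATdKO mice, 1 to 2 for the labels at 8 °C, 0 to 3 at 30 °C and 0 to 2 for the interaction. Among the 66 other pathway genes, an unadjusted p gave 19 calls for cold in Cre- mice (12 in edgeR), 17 in BATdKO mice (5, with 8 under DESeq2 and 8 under total-count scaling), 5 for the labels at 8 °C (2), 8 at 30 °C (0, with 1 under DESeq2 and 4 without both mice m6) and 6 for the interaction (0), and leaving out 1 library gave 8 to 13, 3 to 8, 2 to 3, 0 to 2 and 0 to 0. The lowest member count of 5 came without the BATdKO mice m2 or m5 at 30 °C or m2 at 8 °C, each losing Acadm, Hadhb and Ech1, and the label counts rose without a mouse m6 at 30 °C. Total-count scaling turned the split of calls over all genes from 695 higher and 448 lower to 433 and 2826 in cold Cre- mice, and from 470 and 413 to 255 and 2557 in cold BATdKO mice. Over all genes, DESeq2 called 90 between the labels at 30 °C and 51 in the interaction, against 0 and 12. The cause of these changes was not tested. Counts over all genes for the fits that left out libraries are not given here. RLE scaling, both filters and robust dispersion gave 7 to 13 calls in the cold comparisons. No paired analysis was possible because the mouse numbers pair no mice between groups. Fits without the 2 libraries highest in muscle markers, and without the shallow library and the one lowest in adipocyte markers, were chosen after seeing the data. Depth, down to 699703 counts, limits the low genes most, such as Ehhadh, whose lowest warm Cre- level was 4.10 CPM.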
